A study of Mus musculus with 5 samples.

Results

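The genes described here are 10 imprinted regulators of fetal growth, Igf2, Igf2r, Grb10, Cdkn1c, H19, Dlk1, Meg3, Mest, Peg3 and Plagl1. They were chosen by name, with earlier results of these data known, so shares of all genes set beside them are descriptions. Every non-control probe was taken that the array files assign to these symbols, to an older symbol (Gtl2 for Meg3) or to their accessions. This gave 22 of 41174 probes and 10 of 28778 genes. The array holds 3 members by 1 probe each (Igf2r, Cdkn1c and Mest) and the other 7 by 2 to 5 probes each.

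The study measured 5 mouse cell lines on 5 one-colour arrays, in 3 groups. The hepatic progenitor cells (HPC) are 2 lines from E13.5 fetal liver, HB1 from C57BL6J mice (strain also given as C57BL/6) and HNG2 from the stock Tg(Nanog-GFP, Puro)1 Yam. The neural progenitor cells (NPC) are 1 line, NSBAg2, made from the embryonic stem cell line BAg73C2, which carries the beta-geo reporter and G418 resistance gene knocked into Afp. The induced hepatic progenitor cells (iHPC) are NSBAg2 cells infected with pMXs retroviruses for 9 (iHPC 9F) or 10 (iHPC 10F) transcription factors; G418 was added 3 weeks after infection, for 1 week, so that cells were selected for Afp transcription. The iHPC therefore carry the same Afp allele as the NPC, and the HPC are not labelled as carrying it. The labels do not present the arrays of a group as repeat cultures of 1 condition. The spread behind every p-value is thus that of HB1 from HNG2 and of iHPC 9F from iHPC 10F, while NPC has no replicate, and errors written after ± are the SD of 2 arrays.

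Imprinted genes are expressed from the copy inherited from 1 parent, set by DNA methylation laid down in the egg or sperm. Many of them act on fetal and placental growth, and several are strongly expressed in fetal liver and decline after birth. Paternally expressed members such as Igf2 tend to promote growth, and maternally expressed members such as Igf2r, Grb10 and Cdkn1c tend to restrain it. The arrays measure total RNA of a gene and cannot tell the parental copies apart.

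Each level is a log2 signal minus the log2 75th percentile of all signals of that array, and a level difference of 1 is 2-fold. A probe was called well above background by the scanner software. On each array 58.9% to 65.6% of the spots were well above background and 0 were saturated. All 9 hepatoblast markers, among them Afp, Alb and Hnf4a, were well above background on the HPC and iHPC arrays, and 2 of the 9 on the NPC array. Of 8 neural progenitor markers 7, all but Olig2, were well above background in NPC, 6 in each iHPC line, 5 in HB1 and 6 in HNG2. Their summed signal, in units of the array's 75th percentile, was 5.22 in NPC, 7.13 in iHPC 9F and 8.11 in iHPC 10F. It was 1.91 in HB1 and 3.34 in HNG2. Nes was the brightest neural marker in the iHPC lines, at a level of 2.66 in 9F and 2.87 in 10F, against 1.18 in NPC. Of the 7 tested, 2 had a higher mean in iHPC than in NPC, Nes and Msi1, and 5 a lower one. Of these 7, 0 were called higher and 2 lower, beside 2.80% and 2.85% of all genes. The 2 were Sox2 (-4.86, limma adjusted p = 0.0338) and Pax6 (-1.96, limma adjusted p = 0.0438). Of 10 mesenchymal markers, 9 were well above background in NPC, with a summed signal of 193.4 times the array's 75th percentile, against 3.39 to 3.47 in iHPC, 2.21 in HNG2 and 0.173 in HB1. In cultures such as these, fewer cells of a type and less RNA per cell cannot be told apart. Neither HPC array was scanned on the same day or slide as the iHPC or NPC arrays, so scan day and cell type cannot be told apart in any comparison with HPC.

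The proximal promoters of members are shown with their CpG sites, written CG, because imprints are set by methylation of such sites. The sequences do not show whether a window lies in the region that carries a member's imprint. RefSeq sequence (GRCm38.p6) of the 250 bases before a transcription start was matched for 8 of the 10 members, in 15 entries. In the 4 below, 5′ to 3′ on the gene's strand, capitals mark every CG. They belong to Igf2r and Plagl1, which passed the test in a comparison, to Grb10, and to Mest, the member with the widest range of levels.
Igf2r promoter: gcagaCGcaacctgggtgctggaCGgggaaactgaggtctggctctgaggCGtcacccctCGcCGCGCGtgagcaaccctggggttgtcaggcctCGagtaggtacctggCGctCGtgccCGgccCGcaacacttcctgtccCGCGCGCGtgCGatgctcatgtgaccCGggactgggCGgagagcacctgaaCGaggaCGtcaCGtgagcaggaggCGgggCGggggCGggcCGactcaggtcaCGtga
Plagl1 promoter: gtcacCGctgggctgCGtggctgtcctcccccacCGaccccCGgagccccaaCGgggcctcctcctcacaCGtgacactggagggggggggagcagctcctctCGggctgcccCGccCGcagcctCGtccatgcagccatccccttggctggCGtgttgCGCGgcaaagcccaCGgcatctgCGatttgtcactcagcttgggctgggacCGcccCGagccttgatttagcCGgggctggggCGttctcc
Grb10 promoter, first entry: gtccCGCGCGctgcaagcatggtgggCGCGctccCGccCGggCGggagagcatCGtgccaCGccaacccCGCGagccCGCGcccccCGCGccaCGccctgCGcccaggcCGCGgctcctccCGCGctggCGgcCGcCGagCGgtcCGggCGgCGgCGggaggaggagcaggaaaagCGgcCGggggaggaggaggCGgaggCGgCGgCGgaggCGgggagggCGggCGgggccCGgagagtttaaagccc
Mest promoter, second entry: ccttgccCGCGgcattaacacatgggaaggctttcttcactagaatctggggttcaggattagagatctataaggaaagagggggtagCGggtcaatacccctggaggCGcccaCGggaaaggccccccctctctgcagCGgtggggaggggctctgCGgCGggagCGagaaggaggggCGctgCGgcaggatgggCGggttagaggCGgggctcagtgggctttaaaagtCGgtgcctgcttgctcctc
The Igf2r promoter (chr17:12769707-12769956, minus strand) holds 27 CG, a number reached by 8.56% of all 32851 promoter entries. The Plagl1 promoter (chr10:13090582-13090831, plus strand) holds 19, reached by 19.7%. The Grb10 promoter (chr11:12037421-12037670, minus strand) holds 40, reached by 1.31%, and its second entry, further into the gene, holds 8, reached by 43%. The Mest promoter (chr6:30737800-30738049, plus strand) holds 14, reached by 29.4%. The median entry holds 6. The printed entries are among the members' richer ones. The other entries hold 1, 10, 22 and 6 CG for Igf2, 8 for Dlk1, 10 and 0 for Meg3, and 8 for Peg3. The first Mest entry holds 7, reached by 46.3%, and the third, which overlaps the second, holds 14. The hexamer TGCCGC, the core recognised by the imprint-maintaining protein ZFP57, was searched on both strands. It lies in 4 member entries, 1 of Meg3, 1 of Plagl1 and 2 overlapping ones of Mest, and in 8.68% of all entries. The GC box GGGCGG, searched on both strands, lies in 8 of the 15 member entries, all those printed included, and in 32.7% of all entries. TATAAA, searched on both strands, lies in 1 member entry, of Meg3, and in 12.4% of all entries. These matches describe the letters of the windows, and the arrays do not measure methylation or binding there.

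Igf2 encodes the insulin-like growth factor of the fetus, which signals through Igf1r and Insr. Its tested probe (chr7:139078075-139078135, mouse build mm7, minus strand) is printed on 10 spots, whose log2 SD within an array was 0.0294 to 0.0831. Igf2 measured -0.67 in HB1 and -2.13 in HNG2. It measured 3.38 in iHPC 9F, 1.90 in iHPC 10F and 1.32 in NPC. Both HPC lines thus lay below NPC and both iHPC lines above it. The iHPC mean of 2.64 ± 1.05 (SD, n = 2) exceeded the HPC mean of -1.40 ± 1.03 (SD, n = 2) by 4.04 (SE 0.791), a 16.4-fold difference that did not pass the test (limma, adjusted p = 0.0824). The second Igf2 probe gave 4.13 for the same difference, and both probes placed the 5 arrays in the same order.

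Igf2r encodes the mannose 6-phosphate receptor that takes up IGF2 and carries it to lysosomes. Its probe (chr17:11399590-11399648, mm7, minus strand) measured 3.05 in HB1 and 2.09 in HNG2. It measured -1.71 in iHPC 9F, -1.35 in iHPC 10F and -0.30 in NPC. Igf2r was thus highest in the HPC lines, and the groups did not overlap. It was 17.2-fold lower in iHPC than in HPC, with a log2 difference of -4.10 (SE 0.423, limma adjusted p = 0.0331). It was 7.33-fold higher in HPC than in NPC, by 2.87 (SE 0.519, limma adjusted p = 0.0467). The difference between iHPC and NPC was -1.23 (SE 0.519) and did not pass the test (limma adjusted p = 0.266).

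Grb10 encodes an adaptor that binds and inhibits the insulin and IGF1 receptors, and it is transcribed from the maternal copy in most tissues and from the paternal copy in neurons. Its tested probe (chr11:11882970-11883029, mm7, minus strand) measured 0.14 in HB1, -3.10 in HNG2 and -4.36 in NPC. On the iHPC arrays it was not well above background, at -7.25 and -7.24. Grb10 was thus brightest in HB1 and was not measured above background in either iHPC line. The iHPC mean was at least 15.4-fold below that of HPC (at least 5.03-fold with HNG2 alone and 47.4-fold with HB1 alone), and the fitted difference of -5.76 (SE 1.21) did not pass the test (limma adjusted p = 0.0913). It was -4.15 with HNG2 alone and -7.38 with HB1 alone. With normexp background correction it was -2.29. The other 2 Grb10 probes were well above background in HB1 and on no other array.

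Cdkn1c encodes p57, an inhibitor of cyclin-dependent kinases that holds cells out of the cell cycle. Its probe (chr7:139886128-139886187, mm7, minus strand) measured 0.93 in HB1, -1.57 in HNG2 and -3.88 in NPC. On the iHPC arrays it was not well above background, at -7.65 in 9F and -7.15 in 10F. Cdkn1c was at least 34.5-fold lower in iHPC than in HPC (at least 14.5-fold with HNG2 alone and 82-fold with HB1 alone), with a fitted difference of -7.08 (SE 0.96, limma adjusted p = 0.0486). With normexp background correction the difference was -3.02 and did not pass (limma adjusted p = 0.0805). With HNG2 alone it was -5.83 and with HB1 alone -8.33. Against NPC, iHPC 9F was at least 3.46-fold and iHPC 10F at least 2.49-fold lower, and the fitted difference of -3.52 (SE 1.18) did not pass the test (limma adjusted p = 0.194).

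**Figure D1:**
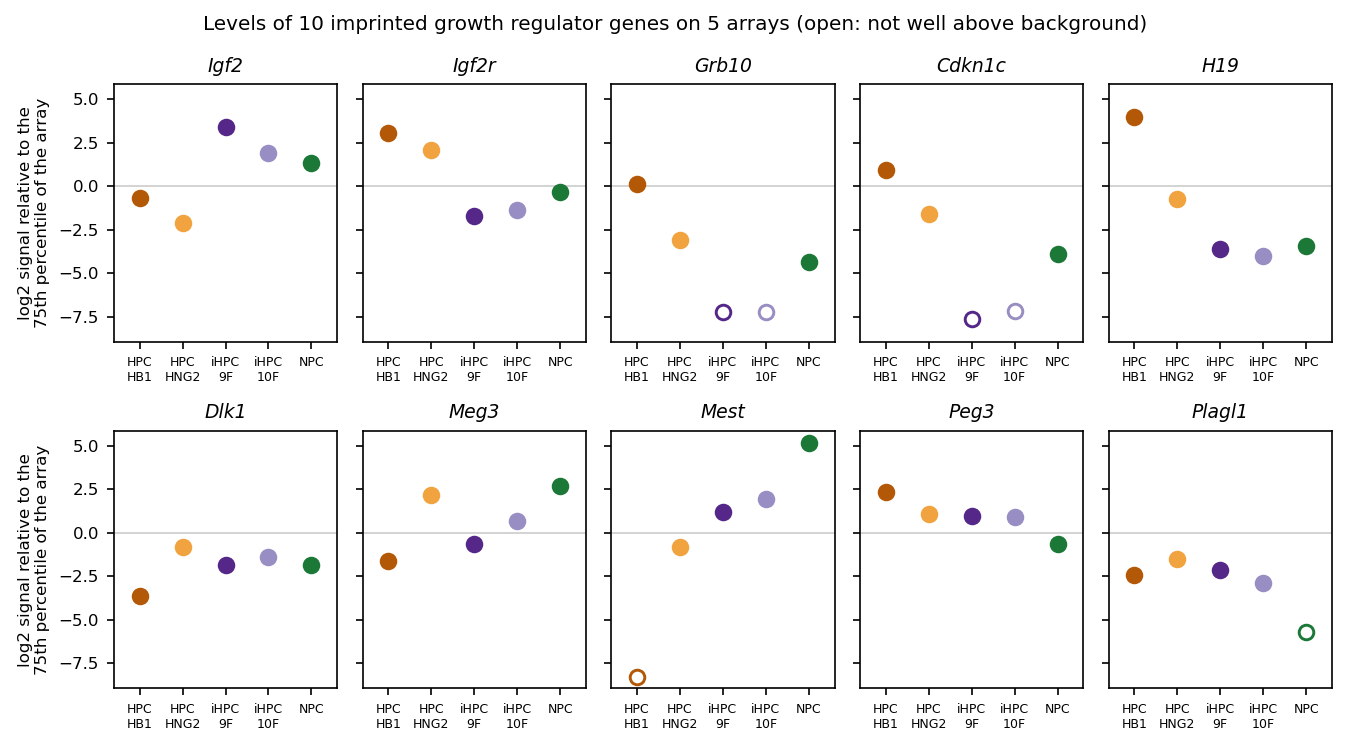
Each panel plots the level of 1 gene, by its tested probe, on the 5 arrays (x axis) as log2 signal relative to the 75th percentile of the array (y axis); open points were not well above background, and each point is 1 array. Igf2 lies higher on the iHPC arrays than on the HPC arrays, Igf2r, Grb10, Cdkn1c and H19 lie lower, and Mest runs from not well above background in HB1 to 5.18 in NPC.

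H19 is a noncoding RNA that shares enhancers with Igf2 and is transcribed from the other parental copy. Its tested probe (chr7:139003144-139003203, mm7, minus strand) lies 74.9 kb from the tested Igf2 probe. H19 measured 3.98 in HB1 and -0.72 in HNG2, against -3.63 in iHPC 9F, -4.00 in iHPC 10F and -3.44 in NPC. Both HPC lines were above all the other arrays, and HB1 alone was 25.9-fold above HNG2. The mean difference between iHPC and HPC was -5.45 (SE 1.75) and did not pass the test (limma adjusted p = 0.164). The second H19 probe gave the same order of HB1, HNG2 and the rest, with a log2 difference of 4.49 between the HPC lines. Between the HPC lines both H19 and Igf2 were higher in HB1, by 4.70 and 1.46, and the iHPC mean differed from NPC by -0.38 for H19 and by 1.32 for Igf2.

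Dlk1 encodes a transmembrane relative of the Notch ligands and is a surface marker by which fetal liver hepatoblasts are sorted. Its tested probe (chr12:106981689-106981748, mm7, plus strand) measured -3.65 in HB1 and -0.81 in HNG2, -1.85 in iHPC 9F, -1.37 in iHPC 10F and -1.85 in NPC. The iHPC lines were therefore at the level of their neural parent (9F minus NPC -0.0073, 10F minus NPC 0.48), and by this probe they lay between the HPC lines. The second Dlk1 probe put iHPC 10F (-2.61) above HNG2 (-2.81), with iHPC 9F at -3.19, NPC at -2.91 and HB1 lowest at -4.81. No comparison of Dlk1 passed the test, with limma adjusted p = 0.744 for iHPC against HPC (difference 0.62, SE 1.08), and its sign depended on which HPC line was used. Against HNG2 alone the difference was -0.80, and against HB1 alone it was 2.03.

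Meg3 is a noncoding RNA of the same cluster, transcribed from the maternal copy. Its tested probe (chr12:107092697-107092756, mm7, plus strand) measured -1.64 in HB1, 2.15 in HNG2, -0.63 in iHPC 9F, 0.65 in iHPC 10F and 2.68 in NPC. HNG2 and NPC were the high arrays, and this held for each of the 5 Meg3 probes. Of those, 2 were well above background on all arrays; the other 3 were well above background in HNG2 and NPC, 1 of them also in HB1. Meg3 had a lower mean in iHPC than in NPC (log2 difference -2.67, SE 1.83, limma adjusted p = 0.464), and it did not pass the test in any comparison. The noncoding RNAs Rian and Mirg, which lie beyond Meg3, were also well above background on the HNG2 and NPC arrays only. Dio3, the thyroid hormone deiodinase at the far end of the cluster, showed another pattern. It measured -0.95 in HB1 and -1.88 in HNG2 and was not well above background on the iHPC and NPC arrays, at least 16.2-fold lower in iHPC than in HPC (limma adjusted p = 0.0223).

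**Figure D2:**
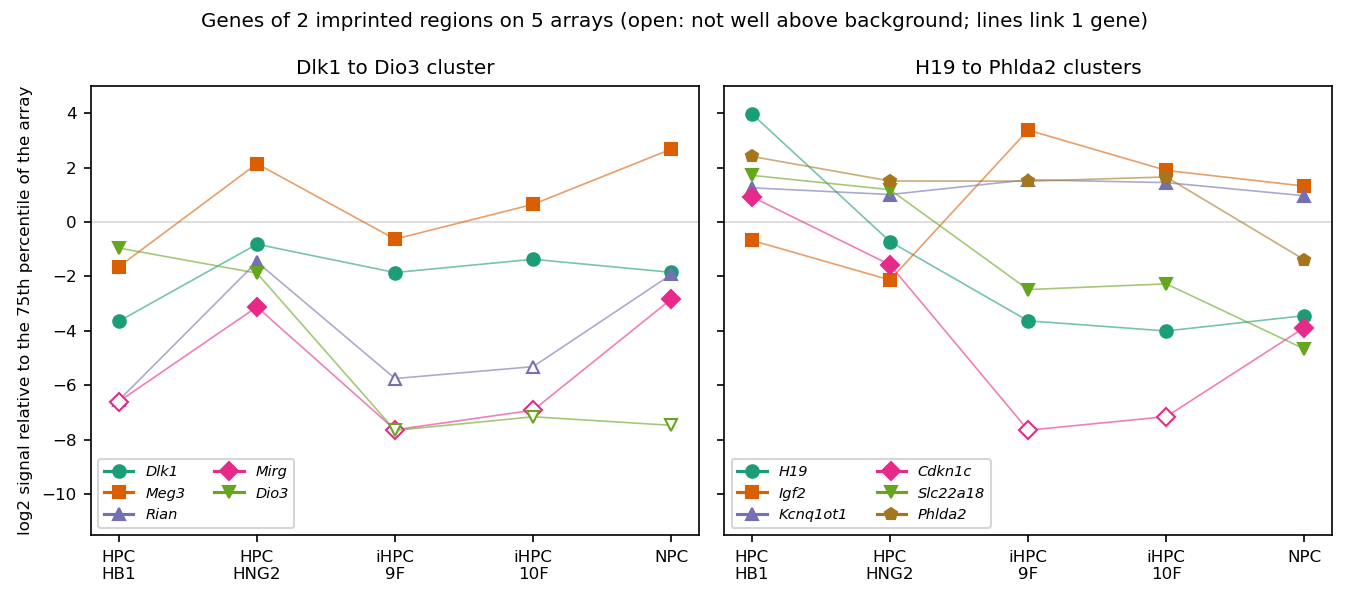
The log2 signal relative to the 75th percentile of the array (y axis) is plotted for genes of the Dlk1 to Dio3 cluster (left) and of the H19 to Phlda2 clusters (right) on the 5 arrays; lines link the points of 1 gene, open points were not well above background, and levels of different probes are not comparable. Meg3, Rian and Mirg share high HNG2 and NPC points, while H19, Cdkn1c and Slc22a18 are highest in HB1.

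Mest encodes a protein of the alpha/beta hydrolase fold, named for its expression in mesoderm. Its probe (chr6:30680425-30680484, mm7, plus strand) was not well above background in HB1, at -8.27. It measured -0.84 in HNG2, 1.19 in iHPC 9F, 1.97 in iHPC 10F and 5.18 in NPC. In signal units this is 478.6 in HNG2 and 21900 in NPC. Mest had the widest range of the 10 members, and NPC was at least 2305-fold above HB1. The 2 iHPC lines lay between the neural parent and HNG2, with 12.1-fold less than NPC (difference -3.60, SE 3.39, limma adjusted p = 0.599). No comparison of Mest passed the test in the fit, whose spread includes that between HB1 and HNG2. The summed signal of the 10 mesenchymal markers followed the same order of HB1, HNG2, iHPC and NPC, from 0.173 to 193.4. By its tested probe, Col1a2 was well above background on all arrays, HB1 included. Col3a1, Pdgfrb, Thy1, Twist1 and Dcn were well above background in HNG2, both iHPC lines and NPC. Col1a1 was so in the HPC lines and NPC, Pdgfra in iHPC 10F and NPC, and Postn in NPC only. Lum was not tested. The part of such cells in the Mest values was not tested.

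Peg3 encodes a large zinc finger protein. Its tested probe (chr7:6266913-6266972, mm7, minus strand) measured 2.36 in HB1, 1.08 in HNG2, 0.99 in iHPC 9F, 0.93 in iHPC 10F and -0.67 in NPC. All 4 hepatic lines were above NPC, the iHPC by 1.63 (SE 0.624, limma adjusted p = 0.233) and the HPC by 2.38 (SE 0.624, limma adjusted p = 0.0865). A second Peg3 probe gave larger differences in the same directions, 2.17 and 3.45. The third was well above background on the HPC arrays only.

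Plagl1 encodes a zinc finger transcription factor that can activate other imprinted genes. Its tested probe (chr10:12831831-12831890, mm7, plus strand) measured -2.45 in HB1, -1.50 in HNG2, -2.14 in iHPC 9F and -2.87 in iHPC 10F. In NPC it was not well above background, at -5.69. In HPC its level exceeded that in NPC at least 12.3-fold (fitted difference 3.72, SE 0.589, limma adjusted p = 0.0376). With normexp background correction the difference was 1.36 and did not pass (limma adjusted p = 0.0918). In iHPC it was at least 8.52-fold higher than in NPC, by a fitted 3.19 that did not pass the test (SE 0.589, limma adjusted p = 0.0761). The other Plagl1 probe (chr10:12830021-12830080, mm7, plus strand) disagreed: it was well above background in NPC and differed from NPC by 0.30 in HPC and by -0.34 in iHPC. The result for Plagl1 therefore rests on 1 of its 2 probes.

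Read by comparison, iHPC differed from HPC in 2 of 10 members, Igf2r and Cdkn1c, both lower in iHPC. In the same fit 5.43% of 19303 genes were called, 3.55% as higher and 1.88% as lower in iHPC. With dim values as they stand, the median difference of the members was -0.64, beside 0.05 for all genes, and the median size of the difference was 4.07, beside 0.54. For 7 of the 10 members the iHPC and HPC arrays did not overlap, as was the case for 62.8% of all genes. Of the 5 maternally expressed members, H19, Igf2r, Grb10 and Cdkn1c had a lower mean in iHPC. For Meg3 the sign depended on the probe, at -0.24 by the tested probe and 0.38 by the second brightest, and by the tested probe it turned without HNG2 (1.65) or without iHPC 9F (0.40). Of the 5 paternally expressed members 3 had a higher mean. Without HB1 the count of called members was 6 and without HNG2 it was 7, when 36.2% and 36.1% of all genes were called. Without either iHPC array 0 of all 19303 genes were called, members included.

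HPC differed from NPC in 2 of 10 members, Plagl1 and Igf2r, both higher in HPC, when 15.7% of all genes were called, 6.68% as higher and 8.98% as lower. The arrays of 9 members did not overlap, as for 80.0% of all genes. The median member difference was 2.63, beside -0.03 for all genes. The count was 7 without HB1 and 9 without HNG2, beside 49.4% and 50.6% of all genes. Without either iHPC array 0 of all 19303 genes were called here too.

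Against their neural parent, the iHPC differed in 0 of 10 members (limma). In that fit 5.65% of all genes were called, 2.80% as higher and 2.85% as lower in iHPC. Under an unadjusted limma p of 0.05 were 2 members, Plagl1 and Cdkn1c, beside 4715 of all 19303 genes. The arrays of 9 members did not overlap, as for 89.0% of all genes. By their tested probes H19, Meg3, Igf2r, Grb10 and Cdkn1c had a lower mean in iHPC than in NPC; the other 2 Grb10 probes were dim in both. Igf2, Peg3, Plagl1 and Dlk1 had a higher mean and Mest a lower one. The sign turned for Plagl1 by its other probe (-0.34) and for Dlk1 without iHPC 10F (-0.0073). The median difference was -0.80, beside 0.03 for all genes. These 3 arrays shared a scan day. Without either HPC array, or with the scan day as a block, which leaves the spread to the iHPC pair alone, 6 members were called, beside 35.0% of all genes: Peg3 and Plagl1 were higher in iHPC, and Mest, Grb10, Igf2r and Cdkn1c lower. Dlk1, H19, Meg3 and Igf2 were not among them. Grb10 and Cdkn1c were dim on both iHPC arrays, so their spread there is that of values near background. They were at least 2.1-fold and 2.93-fold lower in iHPC than in NPC. With normexp background correction in the main fit, their differences were -0.65 and -0.60. The iHPC 10F array shared its slide with NPC, and on that slide it differed from NPC by -3.21 for Mest, -2.03 for Meg3, -1.05 for Igf2r, 0.58 for Igf2 and 1.59 for Peg3.

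**Figure D3:**
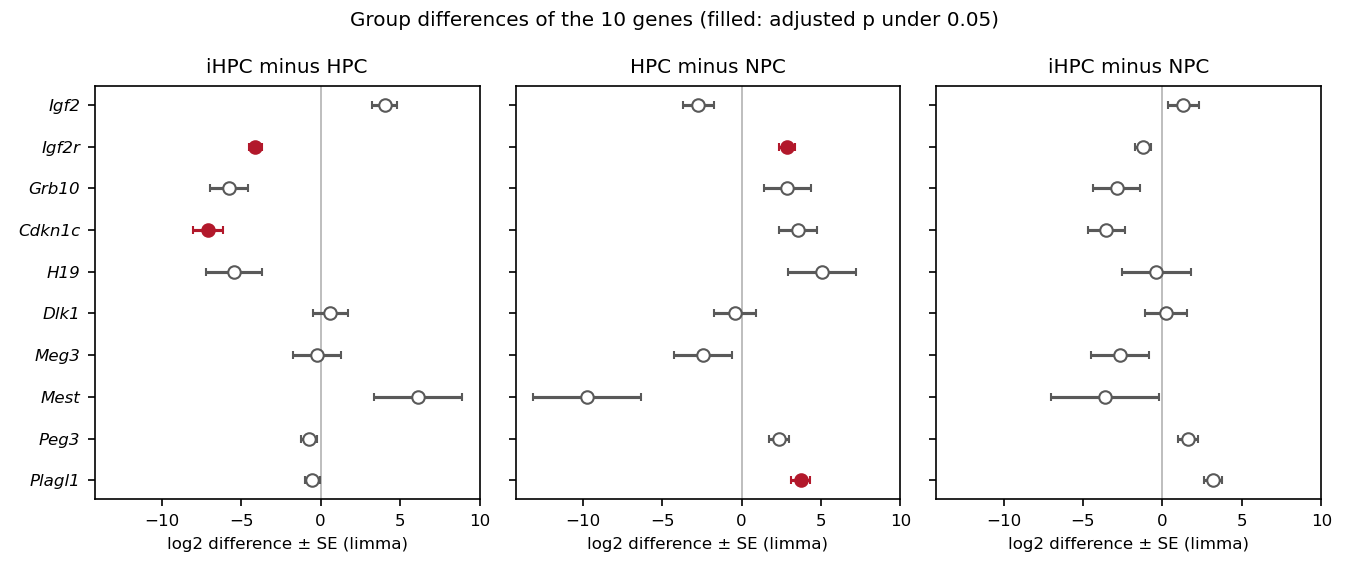
The log2 difference of each gene (x axis, limma estimate ± SE) is plotted for iHPC minus HPC, HPC minus NPC and iHPC minus NPC; filled red points passed an adjusted p of 0.05 over all 19303 genes. Igf2r and Cdkn1c are filled on the left, Igf2r and Plagl1 in the middle and none on the right.

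The lines of the HPC group differed from each other at these genes. HB1 and HNG2 were at least 4-fold apart for 6 of 10 members, H19, Mest, Meg3, Grb10, Dlk1 and Cdkn1c, beside 8.60% of all genes. They were at least 16-fold apart for 2, H19 and Mest, beside 1.61%. The median size of the difference was 2.66 on the log2 scale for the members, against 0.53 for all genes. As the members were chosen with earlier results known, these shares and sizes describe them and are not a test. HB1 was higher for H19 (4.69), Grb10 (3.23) and Cdkn1c (2.50), and HNG2 was higher for Mest (at least 35.6-fold), Meg3 (HB1 minus HNG2 -3.79) and Dlk1 (-2.83). Of 49 other imprinted genes tested, 8 were at least 4-fold apart, with a median size of 0.72, and of 28 genes that neighbour the members 3 were. HB1 and HNG2 differ in strain of origin and scan day as well as in line, and with 1 array each there is no test. In the same pair 6 of 9 mesenchymal markers tested were at least 4-fold higher in HNG2, and their part in the differences of the members was not tested.

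The iHPC lines were at least 4-fold apart for 0 of 10 members, beside 0.730% of all genes, and at least 16-fold for 0, beside 0.0363%. The median size was 0.49 for the members and 0.15 for all genes. Igf2 was the member that differed most between them, by 1.48 (2.80-fold higher in 9F), followed by Meg3, which was 2.43-fold lower in 9F. The second Igf2 probe gave 3.08-fold and the second brightest Meg3 probe 2.50-fold, in the same directions. Both Igf2 and Meg3 lay closer to NPC in 10F than in 9F.

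**Figure D4:**
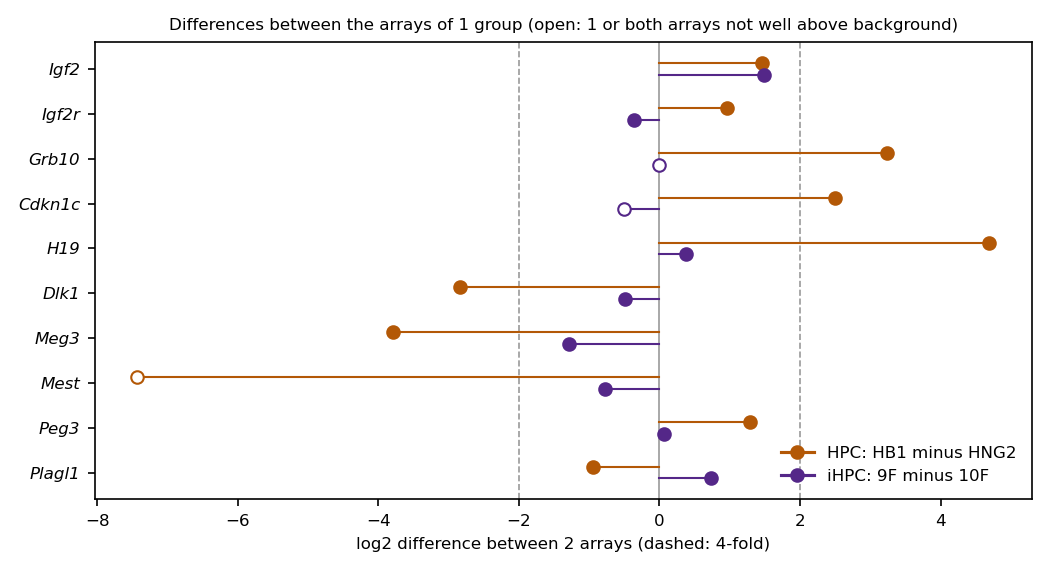
The log2 difference between the 2 arrays of a group is plotted for each gene, HB1 minus HNG2 and iHPC 9F minus iHPC 10F; dashed lines mark 4-fold and open points involve an array not well above background. The HPC lines are beyond 4-fold for 6 genes and the iHPC lines for 0.

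Other genes of the IGF axis changed between iHPC and NPC, where Igf2 and Igf2r did not pass the test. Of 23 tested, 2 rose and 3 fell in iHPC against NPC (limma), when 2.80% of all genes were called as higher and 2.85% as lower. Igfbp1, an IGF-binding protein of fetal and adult liver, was at least 226.6-fold higher in iHPC (adjusted p = 0.0264). Grb7, an adaptor of the Grb10 family, was 8.82 higher on the log2 scale (adjusted p = 0.0285). Stc1, an inhibitor of the protease that releases IGF from its binding proteins, was at least 9.27-fold lower (adjusted p = 0.0401), and Igfbp2 differed by -2.85 (adjusted p = 0.0391). Against HPC, 1 of the 23, Igfbp1, was called, beside 5.43% of all genes. It was 5.27 higher in iHPC (limma adjusted p = 0.0183). The receptors Igf1r and Insr were not called in any comparison. Between HPC and NPC 2 of the 23 were higher in HPC, Grb7 (8.58) and Igfbp1 (at least 5.85-fold), and 4 lower, among them Igfbp6 (-4.70) and Igfbp2 (-4.06). In that comparison 6.68% of all genes were called as higher and 8.98% as lower in HPC.

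Of 28 tested genes that lie beside the members, 1 was higher and 5 were lower in iHPC than in HPC (limma). The shares of all genes were 3.55% higher and 1.88% lower. Plg, the plasminogen gene near Igf2r, was at least 18.5-fold higher in iHPC. The lower genes included Dio3, Ddc, the decarboxylase gene beside Grb10, at -5.37, and Slc22a18, a transporter gene beside Cdkn1c, at -3.83. Against NPC 0 of the 28 were called in iHPC, beside 5.65% of all genes. Under an unadjusted limma p of 0.05 were 10 of the 28, beside 4715 of all 19303 genes. Between HPC and NPC 7 were higher and 1, Plg, lower, beside 6.68% and 8.98% of all genes. Ddc was 7.49 and Slc22a18 6.12 higher in HPC than in NPC. Kcnq1ot1, the noncoding RNA between Igf2 and Cdkn1c, and Airn, the noncoding RNA that overlaps Igf2r, were not called in any comparison.

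Of 49 other imprinted genes, partly the same as these neighbours, 3 were higher and 3 lower in iHPC than in HPC. The shares of all genes were 3.55% and 1.88%. Slc38a4, an amino acid transporter, was at least 148.6-fold and Peg10, a retrotransposon-derived gene, at least 4.34-fold higher in iHPC, while Dio3 and Ddc were lower. In iHPC against NPC 1 of 49 was called, beside 5.65% of all genes. It was Gatm, an enzyme of creatine synthesis, at least 2.18-fold higher in iHPC. Between HPC and NPC 5 were higher in HPC and 6 lower, beside 6.68% and 8.98% of all genes. They were led by Slc38a4 (at least 291.6-fold lower in HPC) and Ddc, followed by Dcn (-6.31) and Slc22a18.

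Of 15 tested genes listed as imprint regulators, 0 passed the test in any of the 3 comparisons (limma). Among them were Ctcf, Zfp57, Trim28, Dnmt1 and Uhrf1. The list was broad and also held Tet1, Tet2, Tet3 and Lin28b. The share of all genes called was 5.65% for iHPC against NPC, 5.43% for iHPC against HPC and 15.7% for HPC against NPC. With 15 genes, 0 calls says little beside these shares. Under an unadjusted limma p of 0.05 were 0, 3 and 4 of the 15, in the same order. Beside them stood 4715, 5328 and 7030 of all 19303 genes. Of 13 tested genes of the Notch pathway (limma), 1 was called in iHPC against NPC, beside 5.65% of all genes. It was Jag2, a Notch ligand, 4.07 higher in iHPC. Between HPC and NPC 1 was higher in HPC, Jag2 (5.24), and 1 lower, Dll3 (at least 7.25-fold). The shares of all genes were 6.68% and 8.98%. Between iHPC and HPC 0 of the 13 were called, beside 5.43% of all genes. Under an unadjusted limma p of 0.05 were 6 of the 13, beside 5328 of all 19303 genes. Of 14 cyclin, cyclin-dependent kinase and inhibitor genes, 0 were called higher and 2 lower in iHPC than in HPC. The shares of all genes were 3.55% and 1.88%. Of the 2, Cdkn1a encodes the inhibitor p21. Its log2 difference was -3.02 (SE 0.381, limma adjusted p = 0.0445). The inhibitor genes Cdkn2a and Cdkn2b went the other way, with fitted differences of 6.60 and 7.93. These did not pass the test (limma adjusted p = 0.192 and 0.248), and neither gene was well above background in HNG2. Cdkn1b, Cdkn2c and Cdkn2d were not called. Ccne2, a cyclin, was the other called gene of that comparison, at -1.72 (limma adjusted p = 0.0473). In iHPC against NPC 1 of the 14 was called, beside 5.65% of all genes. It was Ccne2, at least 4.62-fold higher in iHPC (limma adjusted p = 0.0436). Between HPC and NPC 2 were higher in HPC and 0 lower, beside 6.68% and 8.98% of all genes. They were Cdkn1a (4.09) and Ccne2 (at least 15.3-fold).

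The genes whose 5 levels lay closest to those of a member, after centring each gene on its mean, are given with their Euclidean distance over the 5 arrays. For Igf2 they were C730045O03Rik (0.373), Slco4a1 (0.599) and 4930567H12Rik (0.602). For Igf2r they were Tmem82 (0.421), Gpc6 (0.70) and AK085397 (0.79). For Cdkn1c they were Foxo6 (0.922), Grb10 itself (1.46) and Nap1l2 (2.03), and Foxo6 (1.31) and Nap1l2 (1.34) were also near Grb10, after Tfr2 (1.22). For H19 they were Abcg5 (1.37), 1810073H04Rik (1.74) and 9130016M20Rik (1.79), all more than 1 unit away. For Mest they were Gpc4 (1.71), Mmp2 (2.04) and Loxl1 (2.22), a proteoglycan, a protease and a lysyl oxidase of extracellular matrix. For Meg3 they were Hmgn3 (0.746), AI854703 (0.842) and AK081713 (0.993). For Dlk1 they included Farsa (0.451) and Zfp69 (0.504), for Peg3 Ifnlr1 (0.267) and AK085146 (0.268), and for Plagl1 Stk39 (0.578), Anxa3 (0.593) and Rrp12 (0.613). With 5 arrays among 19303 genes, close patterns are easily found, and these distances are descriptions.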

How the data were processed

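RNA (0.25 µg per sample, per the labels' protocols) of 5 lines was hybridised to 1-colour arrays. Per the file headers, the deposited intensities come from Agilent Feature Extraction 10.7.3.1, which subtracted background, removed spatial and multiplicative trends and used surrogates near background, and probe positions are in mouse build mm7. The series matrix deposited by the authors equalled the processed intensity on 100% of spots. Arrays were scanned on 3 days and 4 slides: HB1 and HNG2 on days of their own, iHPC and NPC together, with iHPC 10F and NPC on 1 slide.

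From the intensity, log2 was taken and each array's 75th percentile (over non-control, unflagged spots) subtracted; spots of a probe were averaged. Probes had to be well above background in all arrays of some group, and the one with the highest mean stood for its gene, which left 19303 genes, all 10 members included. Groups were tested two-sided with lmFit and eBayes of limma 3.58.1 (R 4.3.3), on 5 arrays in 3 groups with 2 residual degrees of freedom, and adjusted by Benjamini-Hochberg over all genes at 0.05. The fit was run on simulated data in which all groups of a gene had 1 spread. The simulation therefore could not check the fit where spreads differ between groups. The exact permutation test of 2 against 2 arrays cannot go below p = 0.333. The median gene SD was 0.374 in HPC and 0.105 in iHPC, and the fit takes 1 spread for all groups. The number of arrays limits the precision.

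"At least N-fold" marks a group with no array well above background. It divides the bright group's mean by a mean in which each dim array counts as its lowest well-above-background signal, or as the probe's own signal if higher. Per comparison, the called genes of each list with the 4 largest differences were named (the text gives most of these), with the 3 genes nearest to each member, some of which are not reported here. Paternal or maternal expression is textbook knowledge. Members and lists were chosen with earlier results of these data known. Symbols came from RefSeq accessions (22944 probes), symbols (6664) or older symbols (23) of GRCm38.p6, otherwise from the files (11543). No promoter entry was matched for H19 or Cdkn1c. Alternatives were other normalizations, background corrections, filters, probe summaries, models, blocks and left-out arrays. The embryonic stem cell arrays and the second neural line named in the series' design were not analysed here. Plots were made in matplotlib 3.10.9.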

Additional observations from a re-analysis of the deposited data

Results flagged for a closer look

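For 5 of the 10 members, both iHPC arrays lay on one side of the NPC array and both HPC arrays on the other; 11.8% of all 19303 genes did so. The difference itself, iHPC minus HPC, was tested in limma. It was 4.04 for Igf2 (adjusted p = 0.0824), -5.45 for H19 (adjusted p = 0.164), -5.76 for Grb10 (adjusted p = 0.0913), -4.10 for Igf2r (adjusted p = 0.0331) and -7.08 for Cdkn1c (adjusted p = 0.0486). Only Igf2r and Cdkn1c of these 5 passed the test. The effects against NPC share its single array: they were 1.32 in iHPC and -2.72 in HPC for Igf2, -1.23 and 2.87 for Igf2r, and -3.52 and 3.56 for Cdkn1c. For H19 they were -0.38 and 5.07, and for Grb10 -2.89 and 2.88. Grb10 and Cdkn1c were not well above background on the iHPC arrays. With normexp background correction the Grb10 difference was -0.65 for iHPC against NPC and -2.29 for iHPC against HPC. By the other Grb10 probes, dim in iHPC and NPC, iHPC 9F lay below NPC and iHPC 10F above it. Groups of 2 arrays were too small to look for single outlying arrays.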

How the results depend on the processing

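Of the members' differences recomputed under 14 or 15 alternatives, 145 of 146 kept their direction for iHPC against NPC, 133 of 136 for iHPC against HPC and 135 of 136 for HPC against NPC. The 5 exceptions were all left-out arrays. Many of these values could not turn, because alternatives that changed only the filter, model or block left the members' estimates as they were. No alternative read another probe of a gene alone, so the turns of Plagl1 and Meg3 by their other probes are not counted. The same limit holds for the counts of other named genes below. Dlk1 reached -0.0073 to 0.48 in iHPC against NPC, -0.80 to 2.03 in iHPC against HPC and -1.80 to 1.03 in HPC against NPC. Meg3 reached -2.13 to 1.65 in iHPC against HPC, and 0.40 without iHPC 9F. The other 30 results of named genes kept their direction in 411 of 411 recomputed values and stayed called in 293.

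Counts of calls moved more. For iHPC against NPC, 6 members and 6755 genes were called with only the groups compared or with the scan day as a block, and 0 to 6 members and 0 to 6755 genes with 1 array left out. All genes called were 305 with no filter on dim probes, 492 with probes above background on all arrays and 0 with the iHPC arrays as separate groups. For iHPC against HPC the members called were 0 with no filter, 1 with the all-array filter, which leaves out Cdkn1c, and 0 with separate iHPC groups; with 1 array left out they were 0 to 7. All genes called were 2147 with normexp, 460 with no filter, 617 with the all-array filter, 0 with separate groups and 0 to 6994 with 1 array left out. For HPC against NPC the members called were 0 with no filter, 1 with the all-array filter, 0 with only these groups, 0 with separate iHPC groups, and 0 to 9 with 1 array left out. All genes called were 4773 with normexp, 1643 with no filter, 0 with only these groups, 0 with separate groups and 0 to 9761 with 1 array left out. With an HPC array left out, or scan day as a block for iHPC against NPC, the spread is that of the iHPC pair alone. With an iHPC array left out or the iHPC arrays as separate groups, it is that of the HPC pair alone. Otherwise, except where an alternative tests fewer genes or arrays, the cause was not tested.

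With normexp the members called were Igf2 and Igf2r in iHPC against HPC, and Mest and Igf2r in HPC against NPC. Igf2r was called in 10 of 14 alternatives for iHPC against HPC, with adjusted p from 0.00629 to 0.272, Cdkn1c in 8 of 13 (0.0052 to 0.297), and in HPC against NPC Plagl1 in 7 of 13 (0.012 to 0.11) and Igf2r in 9 of 14 (0.00673 to 0.156). Median centring moved every difference by 0.04, -0.24 and 0.28 in iHPC against NPC, iHPC against HPC and HPC against NPC. It put 1760 of 3257 called genes higher in HPC than NPC, where the 75th percentile put 1290 of 3024, and 690 of 1310 higher in iHPC than HPC, where the 75th percentile put 685 of 1048.

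Where an arm was left with 1 array, that array was assumed to vary like the others. No paired analysis was possible because the labels give no replicate numbers that link the groups. Scan day (for HPC) and slide as random blocks could not be fitted. A probe near background limits a difference to a bound, as for Grb10 and Cdkn1c in iHPC, Plagl1 in NPC and Mest in HB1.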
